A study of Mus musculus with 130 samples.

Results

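The genes described here are 37 genes of the cell cycle and of proliferation, taken by symbol from a fixed list and matched to Ensembl identifiers. All 37 were found among the 35274 identifiers of the diet table and among the 35711 of the strain table. By role they comprise 9 genes of DNA replication (Cdc6, Cdc45, Mcm2, Mcm3, Mcm4, Mcm5, Mcm6, Mcm7 and Pcna), 3 of deoxynucleotide supply (Rrm2, Tyms and Tk1), 6 cyclins or cyclin-dependent kinases (Ccna2, Ccnb1, Ccnb2, Ccne1, Ccne2 and Cdk1) and the transcription factor Foxm1. A further 10 control passage through mitosis (Aurka, Aurkb, Birc5, Bub1, Bub1b, Cdc20, Melk, Plk1, Ttk and Ube2c), and 8 act on chromosomes, the spindle or cell division (Cenpf, Ect2, Kif11, Kif20a, Mki67, Nusap1, Prc1 and Top2a).

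Liver RNA of male mice was sequenced in 2 sets. In the diet study, C57BL/6J mice, an inbred strain, received 1 of 5 diets, with 3 mice per diet: chow, 50 ppm iron, 500 ppm iron, 2% carbonyl iron (20000 ppm), or 2% carbonyl iron with cellulose as the fiber source. The diet labels of the other groups name no fiber source, so whether those diets held cellulose is not known. In the strain panel, 114 inbred and recombinant inbred strains had 4 weeks of chow and then 6 weeks of the 2% carbonyl iron diet, each represented by 1 mouse, or by 2 for 129X1/SvJ. Recombinant inbred strains make up most of the panel, with 56 BXD, 20 AXB/BXA, 4 BXH and 3 CXB, beside 31 inbred strains of other kinds, and it has no mice on a lower iron diet. No label names a transgene, 1 strain is named for an allele of Cep290 (BXD24/TyJ-Cep290<rd16>/J), and no label gives an age. Library totals lay between 10420708 and 20357169 counts for the diets and between 9407880 and 20572879 for the strains. Hepatocyte markers summed to between 68550 and 97840 CPM (counts-per-million, scaled for library depth) in the diet libraries and between 55040 and 162800 CPM in the panel. The library labelled BXD65/RwwJ had a summed Y-linked level of 3.94 CPM against a panel median of 171 CPM, so results on strains were also computed without it. The 500 ppm mouse 2 stood apart from its group in granulocyte markers and in several of the genes below, and BTBR T<+> tf/J, FVB/NJ and NZB/BlNJ stood apart among the strains; results that rest on them are given with and without them.

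A cell that divides copies its DNA once and then shares the copies between its daughters. Cyclins switch on cyclin-dependent kinases, E2F factors switch on the genes of replication and nucleotide supply, and the B-MYB/FOXM1 programme switches on the genes of mitosis. Adult hepatocytes rarely divide but re-enter the cycle after injury or loss of tissue, and blood precursors, granulocyte precursors and some immune cells in the liver can divide as well. In bulk tissue, fewer cells of a type and less RNA per cell cannot be told apart.

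The promoters of 31 of the 37 genes were matched in RefSeq (GRCm38.p6), as 34 windows from 250 bases before to 50 bases after the start. They are shown because genes of mitosis and of replication are known to be switched on through different short motifs. Motifs were searched on both strands: the cell cycle homology region TTTGAA, the CCAAT box CCAAT, and the E2F motif TTCGCGC or TTGGCGC, whose letters can overlap those of a CCAAT box. TTTGAA was found in 52.9% of the 34 windows and in 17.9% of all 32851 windows of 27025 genes. The CCAAT box was found in 79.4% of the 34 windows and in 37.4% of all windows, and an E2F motif in 26.5% and 3.89%. Among the 22 windows of mitosis genes, mitotic control genes, cyclins and Cdk1, 72.7% held TTTGAA and 22.7% an E2F motif. Among the 12 windows of replication and nucleotide genes, 16.7% held TTTGAA and 33.3% an E2F motif. A match describes the sequence only and is not a measured binding site.

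The 250 bases before the start are printed for genes that were higher on 2% iron and carried the motif of their role there, 5′ to 3′ on the gene's own strand. Capitals mark every match to any of these 3 motifs on either strand. Mki67, at chr7:135716380-135716629 on the minus strand, held TTTGAA at 2 places, the CCAAT box at 3 and an E2F motif at 1:
Mki67: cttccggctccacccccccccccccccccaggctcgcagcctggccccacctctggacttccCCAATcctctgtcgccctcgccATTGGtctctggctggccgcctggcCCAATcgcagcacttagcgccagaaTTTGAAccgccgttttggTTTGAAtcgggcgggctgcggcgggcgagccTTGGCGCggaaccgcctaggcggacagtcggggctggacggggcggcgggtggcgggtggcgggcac
Top2a, at chr11:99024190-99024439 on the minus strand, held TTTGAA at 2 places, the CCAAT box at 6 and no E2F motif:
Top2a: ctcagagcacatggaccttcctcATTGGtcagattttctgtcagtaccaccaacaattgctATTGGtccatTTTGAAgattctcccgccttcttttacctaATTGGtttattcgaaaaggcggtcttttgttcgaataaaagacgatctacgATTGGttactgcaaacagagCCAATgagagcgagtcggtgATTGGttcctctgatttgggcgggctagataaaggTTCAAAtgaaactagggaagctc
Ect2, at chr3:27153855-27154104 on the minus strand, held TTTGAA at 1 place, the CCAAT box at 3 and an E2F motif at 1:
Ect2: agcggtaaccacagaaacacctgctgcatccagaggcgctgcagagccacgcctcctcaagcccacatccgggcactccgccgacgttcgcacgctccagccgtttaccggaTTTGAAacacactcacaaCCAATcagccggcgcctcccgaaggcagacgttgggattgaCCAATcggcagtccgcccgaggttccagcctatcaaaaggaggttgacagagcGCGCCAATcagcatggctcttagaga
Mcm6, at chr1:128359706-128359955 on the minus strand, held no TTTGAA, the CCAAT box at 2 places and an E2F motif at 4, as overlapping pairs on opposite strands:
Mcm6: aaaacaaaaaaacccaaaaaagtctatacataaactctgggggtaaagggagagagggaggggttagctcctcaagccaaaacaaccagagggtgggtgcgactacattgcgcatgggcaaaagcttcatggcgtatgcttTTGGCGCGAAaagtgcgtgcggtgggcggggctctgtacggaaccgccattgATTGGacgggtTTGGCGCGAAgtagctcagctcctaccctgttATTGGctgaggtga
The genes were chosen for these motifs, so what they share is set by the choice. The 2 E2F matches of Mcm3 lay after its start and are not printed.

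Expression was low for most of the 37 genes. In the livers on 50 ppm iron the mean level per length, as TPM (transcripts-per-million, scaled for gene length as well), was 17.1 for Pcna and 15.4 for Tk1, and 0.147 for Mki67. After a filter on low counts, 28 of the 37 genes could be tested in the diet study, among 13560 genes in all. Ccnb1, Ccnb2, Cdc20, Cdc6, Aurkb, Bub1, Kif11, Melk and Ttk did not pass it. Calls were made where the adjusted p lay under 0.05 (edgeR's quasi-likelihood test, Benjamini-Hochberg over all genes tested). Levels below are CPM for mice 1, 2 and 3 of a group, numbered in the order of their records, and no number links mice of different groups. The labels do not say whether mice shared cages or litters, so p-values measure the spread between these mice only.

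On 2% iron against 50 ppm, some genes of replication and of mitosis, and 1 of the 3 nucleotide genes, were higher. The 8 called genes were Kif20a, Mki67, Top2a and Ect2 of mitosis, Mcm2, Mcm3 and Mcm6 of the replicative helicase, and Rrm2, and all 8 were higher. Among all genes tested, 8.52% were called higher and 7.17% lower. The median log2 change of the 28 tested members was 0.89, against 0.01 over all genes tested, and 14 members had an unadjusted p under 0.05. How many of all genes had an unadjusted p under 0.05 was not counted, here or in the comparisons below. The summed level of the 37 genes was 84.8, 91.6 and 95.8 CPM on 50 ppm and 135, 122 and 130 CPM on 2% iron, with no overlap.

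Of the replication genes, Mcm6, a subunit of the helicase that opens DNA ahead of the polymerases, was at 2.42, 2.42 and 2.73 CPM on 50 ppm iron and at 6.30, 6.4 and 6.4 CPM on 2% iron. The groups were far apart, and the log2 change was 1.33 ± 0.33 (SE; adjusted p = 0.0152). Mcm3, another subunit, was at 1.65, 3.87 and 2.90 CPM on 50 ppm and 5.80, 5.51 and 5.38 CPM on 2% iron, a log2 change of 0.98 ± 0.23 (adjusted p = 0.0118). Its lowest 2% mouse stood above its highest 50 ppm mouse. Mcm2 was at 2.23, 3.00 and 2.07 CPM on 50 ppm and 4.06, 4.45 and 3.33 CPM on 2% iron, a log2 change of 0.70 ± 0.21 (adjusted p = 0.0369). The other helicase subunits were not called. Mcm4 had a log2 change of 0.54 (adjusted p = 0.0616), Mcm5 of 0.56 (0.306) and Mcm7 of 0.18 (0.444). Pcna, the clamp that holds the polymerase on DNA, was at 14.8, 21.4 and 19.3 CPM on 50 ppm and 21.8, 25.4 and 24 CPM on 2% iron, with no overlap and a log2 change of 0.36 (adjusted p = 0.078).

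Of the nucleotide genes, Rrm2, the regulated subunit of ribonucleotide reductase, which carries an iron centre and makes deoxynucleotides, was at 4.55, 10.4 and 6.38 CPM on 50 ppm and 27.9, 12.8 and 21.2 CPM on 2% iron. Every 2% mouse stood above every 50 ppm mouse, and the log2 change was 1.54 ± 0.37 (adjusted p = 0.0132). Per length, its mean went from 3.76 to 11.2 TPM. The other 2 nucleotide genes had lower values on 2% iron but were not called. Tk1, which makes thymidine monophosphate by salvage, was at 18.3, 10.3 and 21 CPM on 50 ppm and 10.5, 12.4 and 9.98 CPM on 2% iron, with overlap and a log2 change of -0.60 (adjusted p = 0.103). Tyms, which makes it from deoxyuridine monophosphate, was at 8.14, 6.67 and 7.79 CPM on 50 ppm and 6.46, 5.60 and 5.89 CPM on 2% iron, with no overlap and a log2 change of -0.33 (adjusted p = 0.129).

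Of the mitosis genes, Mki67, the source of the Ki-67 proliferation antigen, was at 1.65, 1.35 and 1.49 CPM on 50 ppm and 4.39, 4.36 and 6.74 CPM on 2% iron. The groups were separate, and the log2 change was 1.78 ± 0.57 (adjusted p = 0.0474). Top2a, the topoisomerase that untangles sister chromosomes, was at 0.582, 1.26 and 0.746 CPM on 50 ppm and 2.65, 1.69 and 4.01 CPM on 2% iron, a log2 change of 1.69 ± 0.51 (adjusted p = 0.0395). Its lowest 2% mouse was close to its highest 50 ppm mouse. Kif20a, a kinesin of the cleavage furrow, was at 0.388, 0.387 and 0.414 CPM on 50 ppm and 1.41, 1.60 and 1.62 CPM on 2% iron, which rest on 13 and 54 counts in all. It had the largest log2 change of the called members, 1.93 ± 0.32 (adjusted p = 0.00187), and mice within each group lay close together. Ect2, which activates RhoA at the furrow, was at 0.388, 1.16 and 1.08 CPM on 50 ppm and 1.82, 2.04 and 2.39 CPM on 2% iron, a log2 change of 1.23 ± 0.39 (adjusted p = 0.0445).

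Among the cyclins and kinases no member was called. Cdk1, the kinase that starts mitosis, was at 1.07, 1.06 and 0.414 CPM on 50 ppm and 1.57, 1.42 and 1.45 CPM on 2% iron (log2 change 0.82, adjusted p = 0.192). Ccne1, a cyclin of the entry into S phase, was at 0.291, 0.0967 and 0.249 CPM and 0.414, 0.533 and 0.341 CPM, a log2 change of 0.97 (adjusted p = 0.456). Ccnb1, the cyclin partner of Cdk1 in mitosis, did not pass the filter and was at 0.388, 0.0967 and 0.332 CPM on 50 ppm and 0.497, 0.622 and 0.427 CPM on 2% iron. Those values rest on few counts, yet the groups did not overlap for any of these 3 genes. Cdc20, which turns on the ligase that ends mitosis, did not pass the filter either and was at 0.388, 0.193 and 0.166 CPM on 50 ppm and 0.497, 0.267 and 0.597 CPM on 2% iron, with overlap.

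Of the mitotic control genes none was called. Ube2c, the ubiquitin-conjugating partner of that ligase, came nearest, with a log2 change of 1.05 (adjusted p = 0.0965), while Birc5 (-0.68, adjusted p = 0.274) and Aurka (-0.27, adjusted p = 0.652) had negative changes. The other tested members had log2 changes from 0.18 (Mcm7) to 1.57 (Plk1), with Cdc45 at 1.12, Bub1b at 1.06 and Foxm1 at 1.05, and adjusted p from 0.0616 (Mcm4) to 0.781 (Ccna2). The 9 members below the filter lay between 0 and 0.872 CPM on 50 ppm and between 0.0829 and 0.829 CPM on 2% iron. Over all 37 genes, 20 had every 2% mouse above every 50 ppm mouse, 2 (Birc5 and Tyms) had every one below, and 15 overlapped. Among all genes tested, 19.2% lay wholly above and 17.7% wholly below. These shares cover only genes that passed the filter, while the 37 include the 9 that did not. Of the 20, Ccnb1, Cdc6, Aurkb and Ttk did not pass it.

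**Figure D1:**
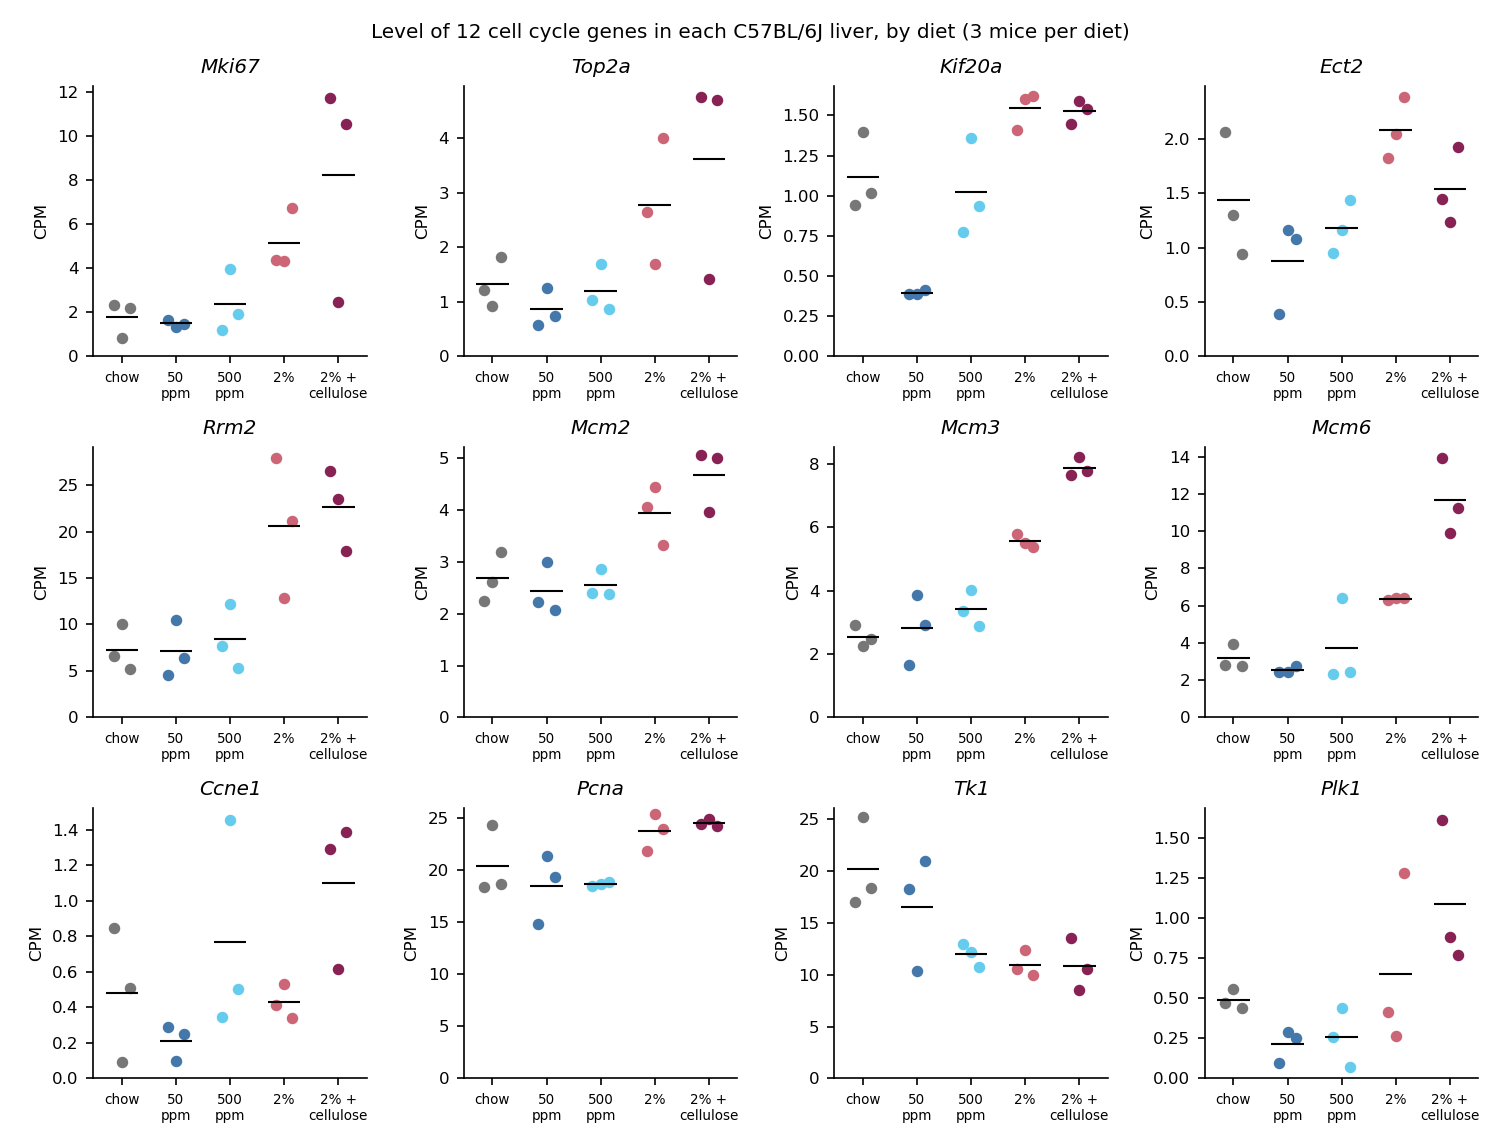
Levels of 12 cell cycle genes in CPM (vertical axes, from 0) in each of the 15 C57BL/6J livers, by diet; each point is 1 mouse and the line is the mean of 3. Mcm6 on 2% iron sits between 6.30 and 6.4 CPM, above all 50 ppm mice, while Tk1 overlaps between the groups.

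How firmly each call held differed by gene. Over the alternative settings and with each mouse left out in turn, Mcm3 was called in 22 of 22 fits, Kif20a in 21 of 21, Mcm6 in 21 of 22 and Rrm2 in 20 of 22. Top2a was called in 14 of 21 (adjusted p from 0.0165 to 0.679) and Mcm2 in 13 of 22 (0.02797 to 0.3996). Mki67 was called in 10 of 21 (0.00452 to 0.145) and Ect2 in 5 of 21 (0.0392 to 0.282). None of these genes changed direction. By limma, the log2 change of Top2a was 0.18 on log2(TPM + 1) and 0.38 on log2(TPM + 0.1), against 1.69 by edgeR. The count of 8 fell to 2 (Kif20a and Mcm3) without the 50 ppm mouse 1. It was 4 without the 50 ppm mouse 3 or the 2% mouse 1, and 5 without the 2% mouse 2 or the 2% mouse 3.

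The cellulose diet was compared with the same 50 ppm mice, so its result is not independent of the one above. Against them 14 members were called and all 14 were higher, where 15.4% of all genes tested were called higher and 14.3% lower. These were the 8 of the comparison above without Ect2, and Mcm4, Mcm5, Pcna, Ccne1, Ccne2, Plk1 and Ube2c. The summed level of the 37 genes was 172, 126 and 153 CPM in the cellulose mice.

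Mcm6 had the largest change of the replication genes, at 13.9, 9.88 and 11.2 CPM in the cellulose mice (log2 change 2.20 ± 0.32, adjusted p = 0.000391). Mcm3 was at 7.65, 8.20 and 7.78 CPM (1.49 ± 0.23, adjusted p = 0.00055), and Mcm2 at 5.07, 3.97 and 5.01 CPM (0.95 ± 0.21, adjusted p = 0.00424). All 3 stood above the 50 ppm mice in every mouse. Smaller changes were called for Mcm4, at 5.63, 5.82 and 4.78 CPM against 3.49, 3.58 and 3.56 CPM on 50 ppm (0.61 ± 0.18, adjusted p = 0.0232). Mcm5 was at 2.50, 2.03 and 2.77 CPM against 1.07, 1.06 and 1.41 CPM (1.03 ± 0.34, adjusted p = 0.0343). Pcna was at 24.4, 24.9 and 24.3 CPM (0.40 ± 0.13, adjusted p = 0.0302), so within 1 CPM of each other while the 50 ppm mice were spread more widely. Rrm2 was at 26.5, 23.5 and 17.9 CPM (1.67 ± 0.37, adjusted p = 0.00459).

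The mitosis genes were less even across the cellulose mice. Mki67 was at 11.8, 2.47 and 10.6 CPM (log2 change 2.46 ± 0.55, adjusted p = 0.0052) and Top2a at 4.75, 1.41 and 4.70 CPM (2.07 ± 0.50, adjusted p = 0.00775). Mouse 2 was the low one for both, near the highest 50 ppm mouse for Top2a. Kif20a was at 1.45, 1.59 and 1.54 CPM (1.92 ± 0.32, adjusted p = 0.000811), with mouse 2 no lower than the others. Ube2c was at 1.37, 0.970 and 2.54 CPM against 0.582, 0.483 and 0.414 CPM (1.72 ± 0.39, adjusted p = 0.00522). Plk1, a kinase of spindle assembly, was at 1.61, 0.882 and 0.770 CPM against 0.0969, 0.290 and 0.249 CPM (2.30 ± 0.68, adjusted p = 0.0206). Of the cyclins of S phase entry, Ccne1 was at 1.29, 0.618 and 1.39 CPM (2.32 ± 0.72, adjusted p = 0.0271). Ccne2 was at 4.51, 3.79 and 2.23 CPM against 1.65, 0.967 and 1.08 CPM (1.51 ± 0.47, adjusted p = 0.0285).

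The summed level of the 8 mitosis genes was 25.9, 9.17 and 23.7 CPM in the cellulose mice, so mouse 2 held the lowest value, while the 9 replication genes summed to 73.9, 67.3 and 71.8 CPM. Of the 37 genes, 21 stood above all 50 ppm mice and 1 (Birc5) below, where 22.4% and 22.1% of all genes tested did so. Cdc6, Bub1 and Ttk, among the 21, had not passed the filter, which all genes tested had. The count of 14 became 9 without the cellulose mouse 1, the 50 ppm mouse 1 or the 50 ppm mouse 3. Between the cellulose mice and the mice of the 2% iron group, no member was called, where 0.0811% of all genes tested were called. There 3 members had an unadjusted p under 0.05 (Mcm6, Mcm3 and Ccna2), and 0 were called by DESeq2. Mcm6 was the nearest, with a log2 difference of 0.88 (adjusted p = 0.234), and it was called in that comparison when the 500 ppm mouse 2 was left out (log2 difference 0.88, adjusted p = 0.0417).

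**Figure D2:**
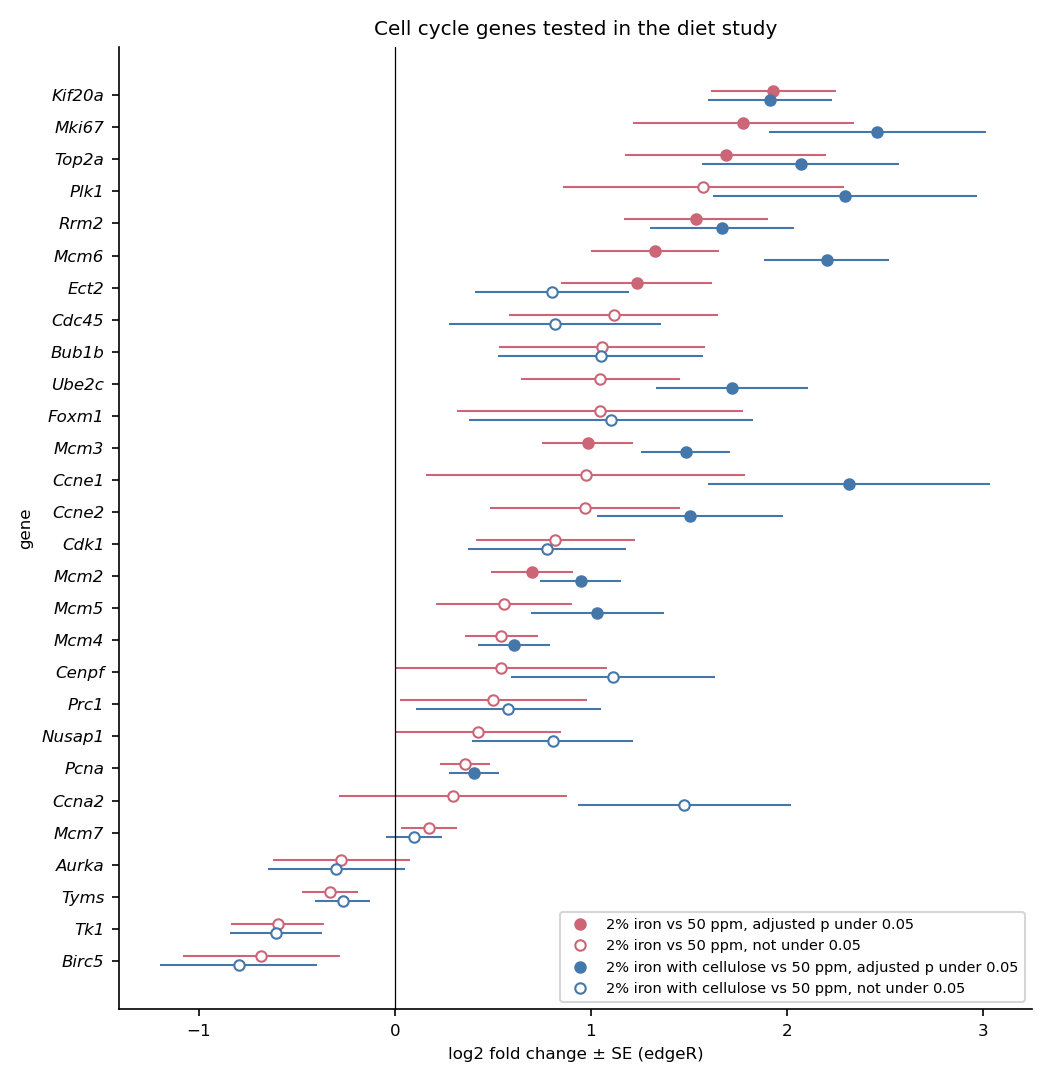
Log2 fold change with SE (horizontal axis) of the 28 tested cell cycle genes (vertical axis) on 2% iron and on 2% iron with cellulose, each against the same 3 mice on 50 ppm; filled points passed an adjusted p of 0.05. Of the points for 2% iron, Kif20a, Mki67 and Top2a lie farthest to the right, and Birc5, Tk1, Tyms and Aurka lie below 0 on both diets.

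The other contrasts of 2% iron share its 3 mice. Against chow, Rrm2 (6.58, 10.1 and 5.24 CPM on chow, log2 change 1.51 ± 0.37, adjusted p = 0.00919), Mcm3 (2.91, 2.24 and 2.47 CPM, 1.13 ± 0.23, adjusted p = 0.00375) and Mcm6 (2.82, 3.91 and 2.76 CPM, 1.01 ± 0.32, adjusted p = 0.0342) were called higher. Tk1 was called lower. It was at 17, 25.3 and 18.4 CPM on chow, above all 3 mice on 2% iron, and its log2 change was -0.88 ± 0.23 (adjusted p = 0.0147). In that contrast 11.9% of all genes tested were called higher and 10.9% lower, so the share of the tested members lay below that of all genes in each direction. Without the 2% mouse 3, Rrm2 and Mcm3 were the 2 members called. Mcm6 was lost also without the 2% mouse 1, the 2% mouse 2, the chow mouse 1 or the chow mouse 3, and Tk1 without the chow mouse 2 or by limma on TPM. Kif20a, at 0.940, 1.40 and 1.02 CPM on chow, was not called (0.46, adjusted p = 0.257), nor was Mki67, at 2.35, 0.839 and 2.18 CPM (1.51, adjusted p = 0.0617).

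Against 500 ppm, Rrm2 was the member called, at 7.66, 12.2 and 5.32 CPM on 500 ppm (log2 change 1.28 ± 0.35, adjusted p = 0.0323). Among all genes tested, 6.59% were called higher and 4.75% lower, so here too the share of the tested members lay below that of all genes. The call of Rrm2 was lost when the 2 groups were fitted alone and without the 2% mouse 1 or 3 or the 500 ppm mouse 1 or 3. The 500 ppm mouse 2 had the highest level of its group for Mki67 (1.21, 3.97 and 1.94 CPM) and Mcm6 (2.32, 6.39 and 2.44 CPM). Without it, 4 members were called, Rrm2, Mcm3, Mcm5 and Mcm6. Without the 50 ppm mouse 1 or 2, which share the estimate of the spread, 2 were called, Rrm2 and Mcm3.

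At the lower intakes, 500 ppm against 50 ppm gave 0 calls among the members and 0.00% among all genes tested, with 2 members at an unadjusted p under 0.05 by edgeR and 0 calls by DESeq2. Those 2 were Kif20a (log2 difference 1.37, unadjusted p = 0.000801) and Ccne1 (1.88, unadjusted p = 0.0219). Chow against 50 ppm also gave 0 member calls (0.391% of all genes tested), with 2 at an unadjusted p under 0.05, Kif20a (1.47, adjusted p = 0.0903) and Birc5 (-0.88, adjusted p = 0.476), and 0 by DESeq2. Kif20a was at 0.775, 1.36 and 0.935 CPM on 500 ppm, so the 3 mice on 50 ppm held its lowest levels of all 15 mice.

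Markers of other cells differed between these diets as well. The summed macrophage markers went from between 178 and 289 CPM on 50 ppm to between 694 and 755 CPM on 2% iron and between 725.8 and 1045 CPM with cellulose. The summed erythroid markers were 73.8 to 115 CPM on 50 ppm, 330 to 485 CPM on 2% iron and 181 to 452 CPM with cellulose. Granulocyte markers were at 0.773 to 1.08 CPM, 4.89 to 15.3 CPM and 8.03 to 89.5 CPM. The cellulose mouse 2, which had the low Mki67, was the lowest of its group, and the 500 ppm mouse 2 stood at 11.8 CPM against 0.517 and 0.719 CPM in the other mice of its group. Of the markers, 11 of 11 for macrophages, 7 of 10 for erythroid cells, 5 of 9 for granulocytes and 5 of 6 for endothelium stood wholly above on 2% iron and 1 erythroid marker wholly below, with Ctsg and Ltf at 0 in all 50 ppm mice. Among all genes tested, 19.2% stood wholly above and 17.7% wholly below. Unlike those genes, the markers were not filtered on low counts. Summed endothelial markers went from between 206 and 259 CPM to between 315 and 335 CPM, and the sums for stellate cells and lymphocytes overlapped between 50 ppm and 2% iron. Of the single lymphocyte markers, 3 of 10 stood wholly above and 0 below, and of the 7 stellate markers 0 did either. Of the 7 hepatocyte markers 4 stood wholly above and 1 wholly below on 2% iron, and their sum went from between 73020 and 84140 CPM to between 90610 and 97840 CPM. The part of these cells in the cell cycle changes was not tested.

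A further 107 genes of the cell cycle were listed by function, of which 84 could be tested in the diet study. On 2% iron against 50 ppm, 8 were higher and 7 lower, beside the 8.52% and 7.17% of all genes tested. Ccnd1, the cyclin that carries growth signals into the cycle, was at 20.1, 15.3 and 12.3 CPM on 50 ppm and 49.6, 103.5 and 130 CPM on 2% iron (log2 change 2.57 ± 0.67, adjusted p = 0.0201). The next largest rises were those of the spindle genes Tpx2 (1.81, adjusted p = 0.0359), Cenpe (1.59, adjusted p = 0.0351) and Kif23 (1.48, adjusted p = 0.0379). The largest fall was that of Mcm10, a replication initiation factor, from between 22.2 and 50.98 CPM to between 7.94 and 8.36 CPM (log2 change -2.11 ± 0.30, adjusted p = 0.000888). Mcm10 was called in all 22 alternatives, Ccnd1 in 18 of 22, Tpx2 in 14 of 20, Kif23 in 14 of 21 and Cenpe in 12 of 20. Cdkn1c, an inhibitor of cyclin-dependent kinases (-1.05, adjusted p = 0.0125), and Nek2, a centrosome kinase (-0.96, adjusted p = 0.0352), were the next largest falls. Over the alternatives, Cdkn1c was called in 21 of 22 and Nek2 in 11 of 21. Genes of the list were called in both directions, in shares near those of all genes, and Mcm10 went opposite to Mcm2, Mcm3 and Mcm6. Without the 50 ppm mouse 1 the count of 15 was 3; it was 6 without the 50 ppm mouse 2 or 3 or the 2% mouse 2 or 3, and 8 without the 2% mouse 1.

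With cellulose against 50 ppm, 24 of the 84 genes were called, 17 higher and 7 lower. Of all genes tested, 15.4% were called higher and 14.3% lower. The share of the list called higher lay above that of all genes, and the share called lower lay below it. Whether these shares differed by more than chance was not tested. Ccnd1 led again, at 97.7, 213 and 158 CPM (log2 change 3.30, adjusted p = 0.00322), followed by Uhrf1, which maintains DNA methylation in S phase (2.35, adjusted p = 0.0155), the kinesin Kif15 (2.17, adjusted p = 0.0141) and Myc, a transcription factor of growth (2.09, adjusted p = 0.00297). Mcm10 was at 4.31 to 5.47 CPM (-2.86, adjusted p = 7.81e-05), and Nek2 (-1.47, adjusted p = 0.0027) and Spc24 of the kinetochore (-1.04, adjusted p = 0.00818) were lower as well. The count of 24 was 10 without the 50 ppm mouse 1 and 13 without the cellulose mouse 1. Cdkn1a, an inhibitor that p53 induces, was at 12.7, 96.5 and 21 CPM on 50 ppm, where mouse 2 stood apart, and at 163, 116 and 77.3 CPM on 2% iron. It was not called against 50 ppm (1.46, adjusted p = 0.154) but was against chow (2.14 ± 0.68, adjusted p = 0.0362), a call lost without the 2% mouse 1 or 2 or the chow mouse 2 or 3. Against chow 14 of the 84 were called, 9 higher and 5 lower, beside 11.9% and 10.9% of all genes tested. Against 500 ppm 6 of the 84 were called, 3 in each direction, beside 6.59% and 4.75% of all genes. Both shares of the list lay below those of all genes. Myc (1.11, adjusted p = 0.102) and E2f1, an activator of S phase genes (0.40, adjusted p = 0.591), were not called on 2% iron against 50 ppm.

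In the strain panel every mouse ate the 2% iron diet, and levels of the 37 genes differed widely between strains. The summed level had a median of 126 CPM and a lowest value of 84.3 CPM. BTBR T<+> tf/J stood at 681 CPM, FVB/NJ at 513.7 CPM and NZB/BlNJ at 468 CPM, and the next were SEA/GnJ at 295 CPM and BXD42/TyJ at 285 CPM. The 2 mice of 129X1/SvJ, the pair of 1 strain, were at 101.0 and 118.2 CPM. With 1 mouse per strain, a single strain's value has no replicate, and a strain cannot be told apart from its mouse. C57BL/6J was at 131 CPM and DBA/2J, the other parent of the BXD strains, at 164 CPM.

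**Figure D3:**
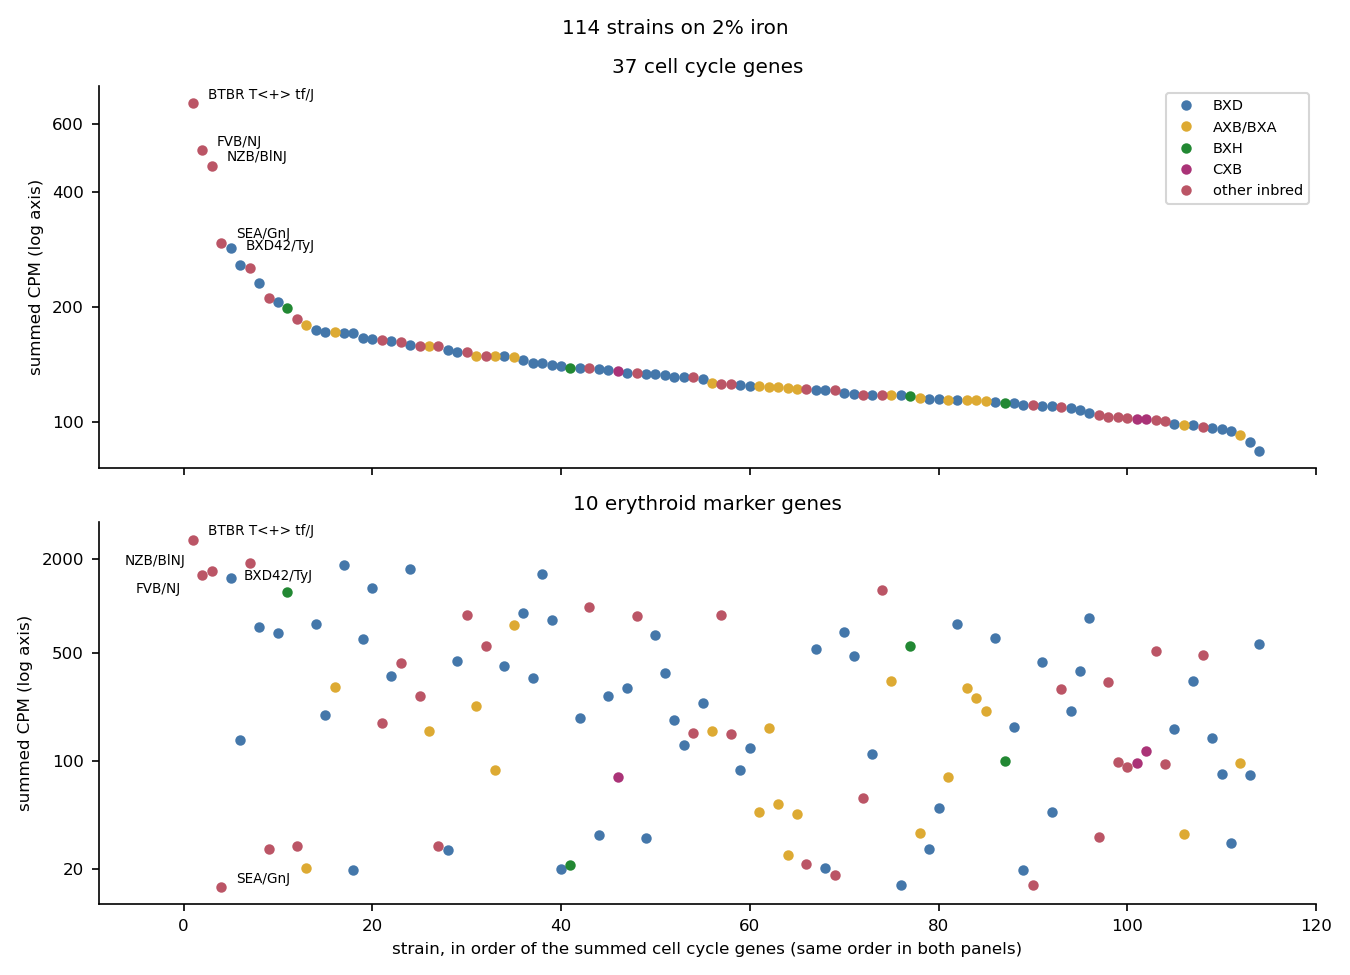
Summed level of the 37 cell cycle genes (upper panel) and of 10 erythroid markers (lower panel) in CPM, on log axes, in each of 114 strains in the order of the upper panel; each point is 1 strain, coloured by family. BTBR T<+> tf/J, FVB/NJ and NZB/BlNJ stand above the rest in the upper panel, and SEA/GnJ is low in the lower one.

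Mki67 ran from 1.03 CPM in NOR/LtJ through a median of 5.65 CPM to 90.1 CPM in NZB/BlNJ, 119 CPM in FVB/NJ and 169 CPM in BTBR T<+> tf/J, 29.96 times the median. Top2a ran from 0.936 CPM in BXA13/PgnJ through 2.92 CPM to 20.3 CPM in BXD42/TyJ, 30.9 CPM in FVB/NJ and 51 CPM in BTBR T<+> tf/J. The top strains were largely shared across genes of mitosis. Cdk1 had a median of 1.17 CPM and a highest value of 10.03 CPM, Ccnb1 of 0.622 and 11.3 CPM, Cdc20 of 0.630 and 9.20 CPM, Kif20a of 1.40 and 9.34 CPM and Ccne1 of 1.54 and 6.57 CPM, all highest in BTBR T<+> tf/J. That strain was highest for 28 of the 37 genes and among the top 3 for 32, FVB/NJ was among the top 3 for 27 and NZB/BlNJ for 25. These counts were not made over all genes. At the low end, 9 genes had at least 1 strain at 0 counts, and 12 had a median below 1 CPM.

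The replication genes had a partly different order. Mcm6 ran from 0.484 CPM in BXD13/TyJ through 7.55 CPM to 31.2 CPM in SEA/GnJ and 40.1 CPM in BTBR T<+> tf/J, and Mcm2 from 1.54 CPM in BXH8/TyJ through 4.42 CPM to 24.7 CPM in SEA/GnJ and 24.8 CPM in BTBR T<+> tf/J. SEA/GnJ was the highest strain for Mcm4 (25.3 CPM, median 4.95 CPM) and Mcm5 (22.1 CPM, median 2.54 CPM). Its 9 replication genes summed to 192 CPM, the second highest of 115 libraries (median 58.9 CPM), while its 8 mitosis genes summed to 32.1 CPM, which ranked 20 (median 16.3 CPM, highest 280 CPM). A/J had a similar form, at 127.5 CPM for replication, ranked 6, and 16.3 CPM for mitosis, ranked 58. In these 2 single mice the replication genes ranked far higher than the mitosis genes.

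Rrm2, Tk1, Tyms and Pcna departed further from that order. Rrm2 ran from 0.320 CPM in BXD70/RwwJ through 3.23 CPM to 38.7 CPM in BXH2/TyJ, 49.5 CPM in C58/J and 63.4 CPM in NZB/BlNJ. Tk1 ran from 5.54 CPM in BXH2/TyJ through 17.8 CPM to 40.01 CPM in C3H/HeJ, so BXH2/TyJ was the third highest strain for Rrm2 and lowest for Tk1. Tyms ran from 3.47 to 12.3 CPM and Pcna from 8.11 CPM in I/LnJ to 41.5 CPM in FVB/NJ, both within a narrower range than the mitosis genes. Over the 28 members tested in the diet study, the SD of log2 CPM between strains had a median of 0.76, against 0.35 over all genes. Divided by the SD within diet groups, the median ratio was 1.74 for the members and 1.65 for all genes, and 26 of the 28 members had a ratio above 1, as did 93.6% of all genes. The wide range between strains thus came with a wide range between C57BL/6J mice of 1 diet.

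Between families, BXD against AXB/BXA gave 0 calls among the 34 members tested (2 at an unadjusted p under 0.05 by edgeR, 0 calls by DESeq2), where 8.45% of 14153 genes were called. Mcm4 was the 1 member called when those families were fitted alone (log2 difference 0.39, adjusted p = 0.0263). The other inbred strains against BXD gave 16 calls, all higher in the other inbred strains, where 11.3% of genes were called higher and 7.81% lower. They were Mki67 (1.23, adjusted p = 0.00206), Cdc6, a loader of the helicase (1.29, adjusted p = 0.00248), and Mcm7 (0.37, adjusted p = 0.00135), with Ccnb1, Ccna2, Cdc20, Ube2c, Top2a, Cenpf, Cdk1, Mcm5, Mcm6, Prc1, Mcm2, Foxm1 and Mcm3 at log2 differences of 0.43 to 1.05. Median levels were close, however: Mki67 had a median of 6.66 CPM in the other inbred strains and 5.65 CPM in the BXD strains.

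Those calls rested on few strains. BTBR T<+> tf/J, FVB/NJ and NZB/BlNJ, singled out after their values were seen, are all in the other inbred group. Without BTBR T<+> tf/J 4 members were called (Mki67, Cdc6, Cdk1 and Mcm7), and 14 without FVB/NJ or without NZB/BlNJ, 13 higher and 1 lower in each. Without all 3, 1 was called, Pcna, and it was lower in the other inbred strains (log2 difference -0.32, adjusted p = 0.00105), where 6.90% of genes were called higher and 5.59% lower. Mki67 then differed by -0.06 and Top2a by -0.05, neither called. Of the further 107 cell cycle genes, 97 could be tested and 36 were called, 32 higher and 4 lower, which became 10 without the 3 strains, 6 higher and 4 lower. Without the library labelled BXD65/RwwJ 16 members were again called, and 34 of the further genes.

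The 3 strains also stood high for erythroid and granulocyte markers. The erythroid markers summed to 2690 CPM in BTBR T<+> tf/J, the highest of 115 libraries, 1684 CPM in NZB/BlNJ and 1597 CPM in FVB/NJ, against a median of 188.4 CPM. Granulocyte markers were at 113, 72.5 and 69.6 CPM, against a median of 7.16 CPM, and highest in BXD42/TyJ at 206 CPM. LG/J had the second highest erythroid sum, 1901 CPM, with a cell cycle sum of 253 CPM. BXD55/RwwJ, BXD8/TyJ and BXD24/TyJ-Cep290<rd16>/J had erythroid sums of 1830, 1727 and 1620 CPM, with cell cycle sums of 171, 159 and 143 CPM. SEA/GnJ, next after these 3 in the cell cycle sum, had the lowest erythroid sum, 15.3 CPM, and BXD68/RwwJ, at 258 CPM for the cell cycle genes, had 135 CPM. Ccnd1 had its lowest level of the panel in NZB/BlNJ, 7.19 CPM against a median of 150 CPM. The part of blood cells in these levels was not tested.

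Members varied together across strains. Over 114 strains, 31 of the 32 members that could be tested against Mki67 on log2 CPM were called (permutation test, 100000 resamples, adjusted over all genes tested), 30 with a positive and 1 with a negative correlation. Among all 14152 genes, 23.1% were called positive and 25.4% negative. Strains of 1 family share parents and are not fully independent. Top2a was the closest (r = 0.93, rho = 0.90), followed by Ccna2 (r = 0.91), Cenpf (r = 0.86), Aurkb (r = 0.86), Ccnb1 (r = 0.85) and Kif11 (r = 0.84), all of mitosis or its cyclins, with an adjusted p of 6.92e-05, which comes from the smallest p the permutations can give (1e-05). The helicase genes lay lower, from r = 0.42 for Mcm4 to r = 0.66 for Mcm3. Ccne2 (r = 0.26), Ect2 (r = 0.32) and Rrm2 (r = 0.35) were the lowest positive ones called; none of these 3 was called without the 3 high strains, and Ccne2 was not called by rank (rho = 0.18, adjusted permutation p = 0.128). Tk1 was the negative one (r = -0.23, rho = -0.24, adjusted p = 0.0315), a call lost on log2(TPM + 1) and with close substrains averaged, and Tyms was not called (r = -0.02, adjusted p = 0.867).

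**Figure D4:**
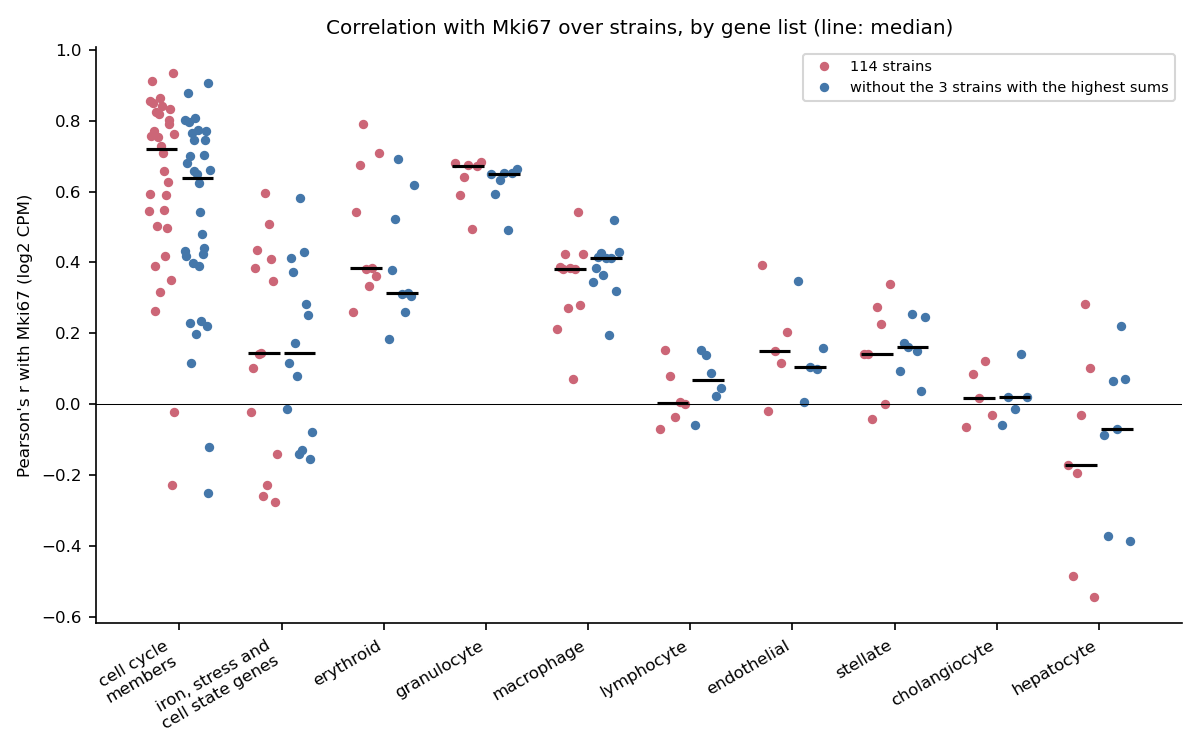
Pearson's r with Mki67 on log2 CPM (vertical axis) for each gene, by gene list (horizontal axis), over 114 strains and without BTBR T<+> tf/J, FVB/NJ and NZB/BlNJ; lines are medians, and genes whose strains fell into separate clusters are left out. Over 114 strains the members have a median of 0.72; granulocyte markers lie at 0.49 to 0.68.

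Without the 2 strains farthest from the median of Mki67, BTBR T<+> tf/J and FVB/NJ, 29 of the 32 were called, and without the 3 high strains 28 were, 27 positive and 1 negative, where 15.4% of all genes were called positive and 32.4% with either sign. Top2a still had r = 0.91 without the 3. Within families, 25 were called in BXD (10.8% of all genes called positive), 28 in the other inbred strains (12.3%), 18 of those without the 3 strains (2.28%), and 4 in the 20 AXB/BXA strains (0.0777%): Top2a, Ccnb1, Ccna2 and Prc1. All within-family calls were positive. Rrm2 had r = 0.06 in BXD and r = 0.71 in the other inbred strains, a difference that was not tested. The other inbred strains hold the 3 high strains, and over all strains Rrm2 was not called without them. The median r over all pairs of 34 members was 0.47, and 0.35 without the 3 strains.

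Pcna was treated apart because its strains fell into 2 separate clusters. The smaller one held 14 strains at 8.11 to 14.2 CPM: 12 other inbred strains (129X1/SvJ, AKR/J, CBA/J, CE/J, I/LnJ, LP/J, MRL/MpJ, NOD/ShiLtJ, PL/J, RIIIS/J, SJL/J and SWR/J) and the BXH strains BXH14/TyJ and BXH8/TyJ. The larger held 100 strains at 16.2 to 41.5 CPM, among them all 56 BXD and all 20 AXB/BXA strains. Within the larger cluster Pcna went with Mki67 (r = 0.50, permutation p = 1e-05, the smallest the resamples can give; rho = 0.40, permutation p = 5e-05). That cluster holds BTBR T<+> tf/J, FVB/NJ and NZB/BlNJ. Without the 3, r was 0.30 (permutation p = 0.00296) and rho 0.34 (permutation p = 0.00076), and without BTBR T<+> tf/J and FVB/NJ alone r was 0.39. Within the smaller one r was -0.12 (permutation p = 0.697, n = 14). Pcna, Ccnb1, Ccnb2 and Tyms each have a named pseudogene copy, so their counts are uncertain.

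**Figure D5:**
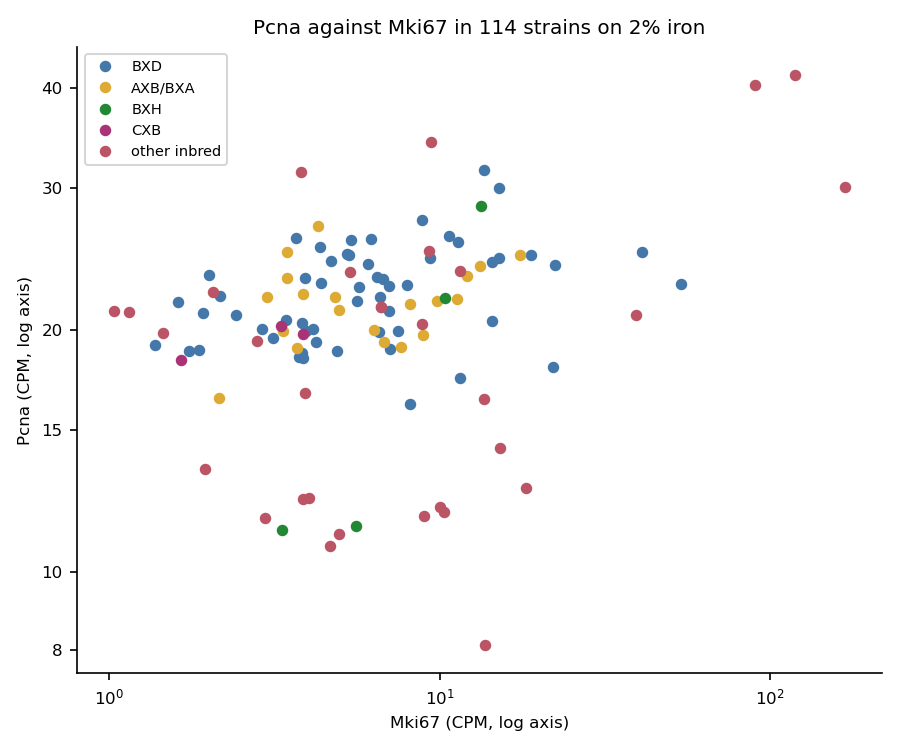
Pcna against Mki67 in CPM, on log axes, in 114 strains on 2% iron, coloured by family; each point is 1 strain. A lower group of 14 strains at 8.11 to 14.2 CPM of Pcna holds no BXD and no AXB/BXA strain.

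Of 14 genes of iron handling, stress and cell state, 9 were called with Mki67, 6 positive and 3 negative. Among all genes, 23.1% were called positive and 25.4% negative, so the share of the list called negative was not above that of all genes. Hmox1, which breaks down heme (r = 0.60), Lcn2, a siderophore-binding protein (r = 0.51), Cdkn1a (r = 0.44), Mdm2, its fellow p53 target (r = 0.41), the macrophage gene Cd68 (r = 0.38) and Nqo1, an NRF2 target (r = 0.35), were positive. Smad7 (r = -0.28), the iron hormone gene Hamp (r = -0.26) and Id1 (r = -0.23) were negative, the last 2 not by rank (rho adjusted p of 0.182 and 0.192). Those 3 negative ones were no longer called without the 3 high strains, and the 6 positive ones were. Bmp6 (r = 0.10), Gdf15 (r = 0.15), Col1a1 (r = 0.14), Trem2 (r = -0.14) and Afp, a fetal liver gene (r = -0.02), were not called. Within families, 5 of the 14 were called in BXD, 4 positive and 1 negative (10.8% of all genes called positive). In the other inbred strains 4 were called (12.3%), and 1 without the 3 strains (2.28%), all positive. In the 20 AXB/BXA strains 0 were called (0.0777%). Over all strains, the erythroid genes Slc4a1 (r = 0.71) and Ermap (r = 0.67) and granulocyte genes from Prtn3 (r = 0.49) to S100a9 (r = 0.68) correlated with Mki67 as well, while Klf1 and Ltf were not tested because their strains fell into clusters. Of the 7 hepatocyte markers, Ttr (r = -0.55) and Apoa1 (r = -0.49) were called negative, also without the 3 high strains. Fgb was called positive (r = 0.28), but not by rank or without those strains, and Alb, Apoc3, Cps1 and Hnf4a were not called.

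Some counts may be shared with other genes. The bodies of 11 members overlap a protein-coding gene, among them Kif20a with Cdc23, Tk1 with Afmid, Mcm7 with Cops6 and Ap4m1, Ccna2 with Exosc9 and Ccne2 with Ints8. Whole gene bodies were compared, introns included, and overlap of exons was not checked. The strand setting used in counting is not given in the sources used here either, so whether reads of such pairs are shared is not known.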

How the data were processed

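RNA of male mouse livers was sequenced in 15 diet libraries and 115 panel libraries, as stranded mRNA libraries per the labels' protocols. The authors' deposited tables hold, per Ensembl gene, estimated counts (expected counts, not scaled) and TPM (scaled for length and depth). The submitters' processing notes name kallisto 0.46 and mm10; how reads were assigned to a strand is not given in the sources used here. Values were not whole in 26.5% (diet) and 27.4% (panel) of entries and were rounded to whole numbers. Symbols were matched for 34845 of 35274 and 35612 of 35711 identifiers.

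From the counts, CPM with TMM scaling were computed, and log2 fold changes with edgeR 4.0.16 (R 4.3.3; quasi-likelihood test after filterByExpr, all groups of a table in 1 fit, Benjamini-Hochberg adjustment over all genes tested, threshold 0.05). Log2 CPM for correlations used a prior count of 2. DESeq2 1.42.0, limma 3.58.1 on log2(TPM + 1) and log2(TPM + 0.1), other filters, other scaling, groups fitted alone and each mouse left out were alternatives. Correlations used permutation tests with 100000 resamples in Python 3.11.15; where strains formed separate clusters for a gene, no r over all strains is given. Scripts were tested on simulated data. Depth limits genes near the filter, whose levels rest on few counts.

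The 37 members and all other lists were chosen with earlier results of these data known. Values by mouse are given for 10 members fixed by name and for every member called in a diet comparison, and the other members by range and count. Of the further cell cycle genes, Ccnd1, Cdkn1a, Myc, E2f1 and the 4 largest called rises and falls in the 2 comparisons of 2% iron with 50 ppm are named, except for a result that is not reported here, and all 14 genes of iron handling, stress and cell state. Promoters are shown for members called on 2% iron whose window held the motif of their role. BTBR T<+> tf/J, FVB/NJ and NZB/BlNJ were left out as an alternative added after seeing the data.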

Additional observations from a re-analysis of the deposited data

Results flagged for a closer look

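Among the 4 BXH strains, the levels of 2 of the 37 cell cycle genes stood apart from the other 3 by more than the 95% critical value of 0.829 for the gap over the range, a limit that chance passes in about 1 of 20 groups, so that over 37 genes a count of 2 is about what chance gives. Ccnb2 was at 1.72 CPM in BXH10/TyJ, against 0.826 to 0.974 CPM in the others (gap over range 0.835). Tyms was at 5.78 CPM in BXH2/TyJ, against 10.35 to 10.96 CPM in the others (gap over range 0.882). Each strain is 1 mouse.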

How the results depend on the processing

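No paired analysis was possible because the labels carry no replicate numbers, and the numbers used here follow the order of the records. Counts of called members that moved by more than 1.5 times were as follows. On 2% iron against 50 ppm (8) it was 4 with at least 10 counts in every library, 4 by limma on log2(TPM + 1) and 5 on log2(TPM + 0.1). Against 500 ppm (1) it was 0 with the groups fitted alone and 2 by DESeq2. With cellulose against 50 ppm (14) it was 6 with at least 10 counts and 9 on log2(TPM + 0.1). For BXD against AXB/BXA (0) it was 1 with the families alone. For other inbred strains against BXD (16) it was 4 with at least 10 counts, 0 on log2(TPM + 1), 4 without BTBR T<+> tf/J and 1 without it, FVB/NJ and NZB/BlNJ. Without these 3 strains 5 genes changed sign: Mki67 (-0.060), Top2a (-0.049), Cenpf (-0.10), Tpx2 (-0.0050) and Cenpe (-0.068).

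Of the further cell cycle genes, those on 2% iron against 50 ppm (15) numbered 5 with no filter, 5 on log2(TPM + 1) and 6 on log2(TPM + 0.1). Against 500 ppm (6) they numbered 3 with no filter, 3 with at least 10 counts, 3 with the groups alone, 2 on log2(TPM + 1) and 3 on log2(TPM + 0.1). With cellulose they numbered 1 by DESeq2 against 2% iron (0), and against 50 ppm (24) 14 with at least 10 counts, 13 on log2(TPM + 1) and 11 on log2(TPM + 0.1). For BXD against AXB/BXA (0) they numbered 2 with the families alone, 2 by DESeq2, 2 without BTBR T<+> tf/J and 3 without the 3 strains. For other inbred strains against BXD (36) they numbered 14 with at least 10 counts, 10 on log2(TPM + 1), 17 without BTBR T<+> tf/J and 10 without the 3. Fewer genes are tested under the filter of 10 counts, which removes Kif20a and other low genes; for the other settings the cause was not tested.

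With each mouse left out in turn, called members numbered 2 to 8 on 2% iron against 50 ppm, 0 to 4 against 500 ppm, 2 to 5 against chow, 9 to 15 with cellulose against 50 ppm and 0 to 1 against 2% iron. The further genes numbered 3 to 15, 1 to 8, 7 to 16, 10 to 26 and 0 to 1 in the same order, and 500 ppm or chow against 50 ppm gave 0 to 0 for both. Of 76 called results for single genes, 20 were called in every alternative; of 1390 alternative values, 1119 were still called, 266 kept the direction only and 5 changed sign. Of 40 called correlations with 280 alternative values, 266 were still called, 14 were not and 0 changed sign.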
